A study of Mus musculus with 9 samples.

Results

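Matricellular proteins are secreted into the extracellular matrix, where they act on cells and on other matrix proteins more than they bear load. The 10 genes *Thbs1*, *Thbs2*, *Thbs3*, *Thbs4*, *Sparc*, *Sparcl1*, *Tnc*, *Postn*, *Fn1* and *Ccn2*, 10 of the 56748 genes in the authors' table, were followed in mouse adipose tissue while obese animals lost weight. They were chosen by name from these families, with their results in these data known. The choice rested on *Thbs2* being higher and *Sparc* being lower after 2 weeks of weight loss than before it, so the difference between those phases is given as a description, without a test. RNA of epididymal adipose tissue, the visceral fat pad next to the epididymis, was sequenced in 9 libraries, 3 per phase. All animals were wild-type male C57BL/6J mice that started high-fat diet (HFD) at 8 weeks of age and ate it for 8 weeks. The Pre libraries came from mice at the end of HFD, the WL1 libraries from mice given standard diet (SD) for 1 week afterwards, and the WL2 libraries from mice given SD for 2 weeks. No group kept on HFD for the same total time was analysed here, so the time on SD cannot be told apart from age and from the time since the start of HFD. The labels give separate samples without naming animals, so p-values measure the spread between these samples, which may be technical.

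The thrombospondins *Thbs1* and *Thbs2* form trimers that bind the scavenger receptor CD36, CD47, integrins and heparan sulfate, and both are known as inhibitors of blood vessel growth. *Thbs1* also releases transforming growth factor beta from its latent complex, whereas *Thbs2* is best known for its part in collagen fibril assembly and in the clearance of matrix metalloproteinase 2. *Thbs3* and *Thbs4* belong to the branch of the family that forms pentamers. *Sparc* (osteonectin) binds collagen and calcium, helps procollagen to be processed into fibrils, and in adipose tissue is made by adipocytes and stromal cells. *Sparcl1* (hevin) is its closest relative. *Tnc* (tenascin C) and *Postn* (periostin) are laid down in wounds and fibrotic tissue, *Fn1* (fibronectin) is the adhesive glycoprotein on which many other matrix proteins assemble, and *Ccn2* (connective tissue growth factor) is a target of transforming growth factor beta and of the YAP and TEAD factors. In a bulk tissue, fewer cells of a type and less RNA per cell of that type cannot be told apart, which holds for every level below.

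The sequences upstream of *Thbs2* and *Sparc* are shown because these genes define the opposite movements described below. RefSeq promoter entries (build GRCm38.p6) matched 6 of the 10 genes, *Thbs2*, *Thbs3*, *Thbs4*, *Sparc*, *Tnc* and *Postn*. The 250 bases before the annotated start are printed 5′ to 3′ on the strand of the gene. Capitals mark matches, on either strand, to TATAAA (a core promoter element bound by the general factor TBP), GGGCGG (an element of the Sp1 factor), GGAATG (a TEAD element), CAGAC (a short element bound by SMAD factors) and TGACTCA (an AP-1 element); no 2 of these matches overlap in the sequences printed.
Thbs2, chr17:14694263-14694512, minus strand: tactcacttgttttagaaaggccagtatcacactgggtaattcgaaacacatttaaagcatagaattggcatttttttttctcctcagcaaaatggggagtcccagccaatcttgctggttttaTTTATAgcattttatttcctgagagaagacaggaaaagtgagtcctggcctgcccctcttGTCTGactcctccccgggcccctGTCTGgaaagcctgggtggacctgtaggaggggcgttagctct
Sparc, chr11:55420081-55420330, minus strand: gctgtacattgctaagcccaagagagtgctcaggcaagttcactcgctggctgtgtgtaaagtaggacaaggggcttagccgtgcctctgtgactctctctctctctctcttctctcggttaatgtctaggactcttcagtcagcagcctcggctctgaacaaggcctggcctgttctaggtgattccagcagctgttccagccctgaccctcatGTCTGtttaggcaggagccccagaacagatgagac
The *Thbs2* sequence held 1 match to TATAAA on the opposite strand, which begins 126 bases before the start, and 2 to CAGAC on the opposite strand, which begin 66 and 43 bases before it. The *Sparc* sequence held 1 match to CAGAC on the opposite strand, which begins 35 bases before the start. CAGAC is common: it stood in 42.2% of the 32851 promoter entries of the same length, against 12.4% for TATAAA, 32.7% for GGGCGG, 12.6% for GGAATG and 4.46% for TGACTCA. A match is a run of letters and was not tested for binding or for a part in the values below.

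Levels can be compared between genes only per length, for which the authors' FPKM (fragments scaled by gene length and library total) were used. At Pre, *Sparc* stood far above the other 9 genes at 1976 ± 438 FPKM (SD, n = 3). *Sparcl1* followed at 107 ± 54.2, *Fn1* at 93.4 ± 31.4, *Thbs1* at 59.9 ± 16.8, *Postn* at 26.6 ± 11.6 and *Ccn2* at 21.9 ± 6.40. *Thbs2*, *Thbs3* and *Tnc* lay at 6.65 ± 1.21, 6.05 ± 1.30 and 4.39 ± 0.904. *Thbs4* closed the order at 0.202 ± 0.146 FPKM. Neighbours whose libraries overlapped at Pre were *Sparcl1* and *Fn1*, *Fn1* and *Thbs1*, *Postn* and *Ccn2*, *Thbs2* and *Thbs3*, and *Thbs3* and *Tnc*. By WL2 the order had changed at the top and in the middle: *Sparc* was at 768 ± 22.2 FPKM, *Thbs1* had come next at 231 ± 23.5, and *Thbs2* was at 53.1 ± 8.33, just below *Fn1* at 56.6 ± 12.6, with which it overlapped.

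Among 21957 nuclear protein-coding genes ranked by FPKM in each library, *Sparc* was 9th, 13th and 7th in Pre replicates 1 to 3, 9th, 10th and 8th in the WL1 libraries and 28th, 27th and 24th in the WL2 libraries. It took 0.571% to 0.888% of all counts at Pre, 0.686% to 0.709% at WL1 and 0.313% to 0.333% at WL2. *Thbs2* went from rank 5168 to 6464 at Pre to rank 771 to 1628 at WL1 and 641 to 959 at WL2. *Thbs1* stood between rank 542 and 1016 at Pre, 186 and 327 at WL1 and 98 and 152 at WL2. The libraries of the 3 phases thus did not overlap in the rank of *Thbs1*, and those of *Sparc* did not separate Pre from WL1.

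*Thbs1* and *Thbs2* were the members that rose in the first week. *Thbs1* (chromosome 2, 117942357 to 117957614, plus strand in the authors' table, for which no build is given here) was at 305, 348 and 510.1 CPM (reads scaled to a common library total with TMM factors) in the Pre libraries, 1003, 857 and 753 at WL1, and 1423, 1412 and 1657 at WL2. Every library of a later phase lay above every library of an earlier one. On the log2 scale WL1 exceeded Pre by 1.17 (SE 0.19, edgeR quasi-likelihood test with Benjamini-Hochberg adjustment over 18510 genes, adjusted p = 0.00701). From WL1 to WL2 it was 0.78 (SE 0.19, 95% confidence interval 0.36 to 1.20), which missed the threshold of 0.05 with an adjusted p of 0.0515. This second step did pass in 8 of the 17 alternative fits. Leaving out Pre replicate 1, 2 or 3, which are not compared in it and enter through the shared estimate of the spread, gave adjusted p-values of 0.0392, 0.0445 and 0.0252.

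*Thbs2* (chromosome 17, 14885762 to 14914497, minus strand) was at 40.0, 57.8 and 50.9 CPM at Pre, 389.6, 289 and 216 at WL1, and 423, 324 and 443 at WL2. The Pre libraries were all low and the WL1 and WL2 libraries overlapped. The mean rose 6.01-fold by WL1, which is 2.59 on the log2 scale (SE 0.23, adjusted p = 0.000347). WL2 lay 0.41 above WL1 on the log2 scale (SE 0.22, 95% confidence interval -0.07 to 0.89, adjusted p = 0.312). The rises of *Thbs1* and *Thbs2* at WL1 passed in each of the 17 alternative fits, those without each library included, with log2 fold changes of 1.02 to 1.42 and 2.35 to 2.77 over the fits that left out a library. WL1 against Pre shares its Pre libraries, and WL2 against WL1 its WL2 libraries, with the difference that chose the genes.

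WL1 was also compared with the midpoint of Pre and WL2 on the log2 scale. This comparison does not reuse that difference, but it does use the same Pre and WL2 libraries. Its p-values are thus not fully independent of the choice. *Thbs2* lay above its midpoint by 1.09 on the log2 scale (SE 0.18, adjusted p = 0.0192), as the single member to pass. The call was lost when WL1 replicate 1, WL1 replicate 2 or WL2 replicate 2 was left out, with log2 values between 0.85 and 1.26 over the fits that left out a library and an adjusted p of at most 0.059. *Thbs1* lay 0.19 above its midpoint (SE 0.16, 95% confidence interval -0.17 to 0.55, adjusted p = 0.557). *Sparc* was 0.48 above its midpoint (SE 0.13, adjusted p = 0.0687); this passed without Pre replicate 2 (log2 0.39, adjusted p = 0.0477) and with DESeq2 (adjusted p = 0.0133).

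**Figure D1:**
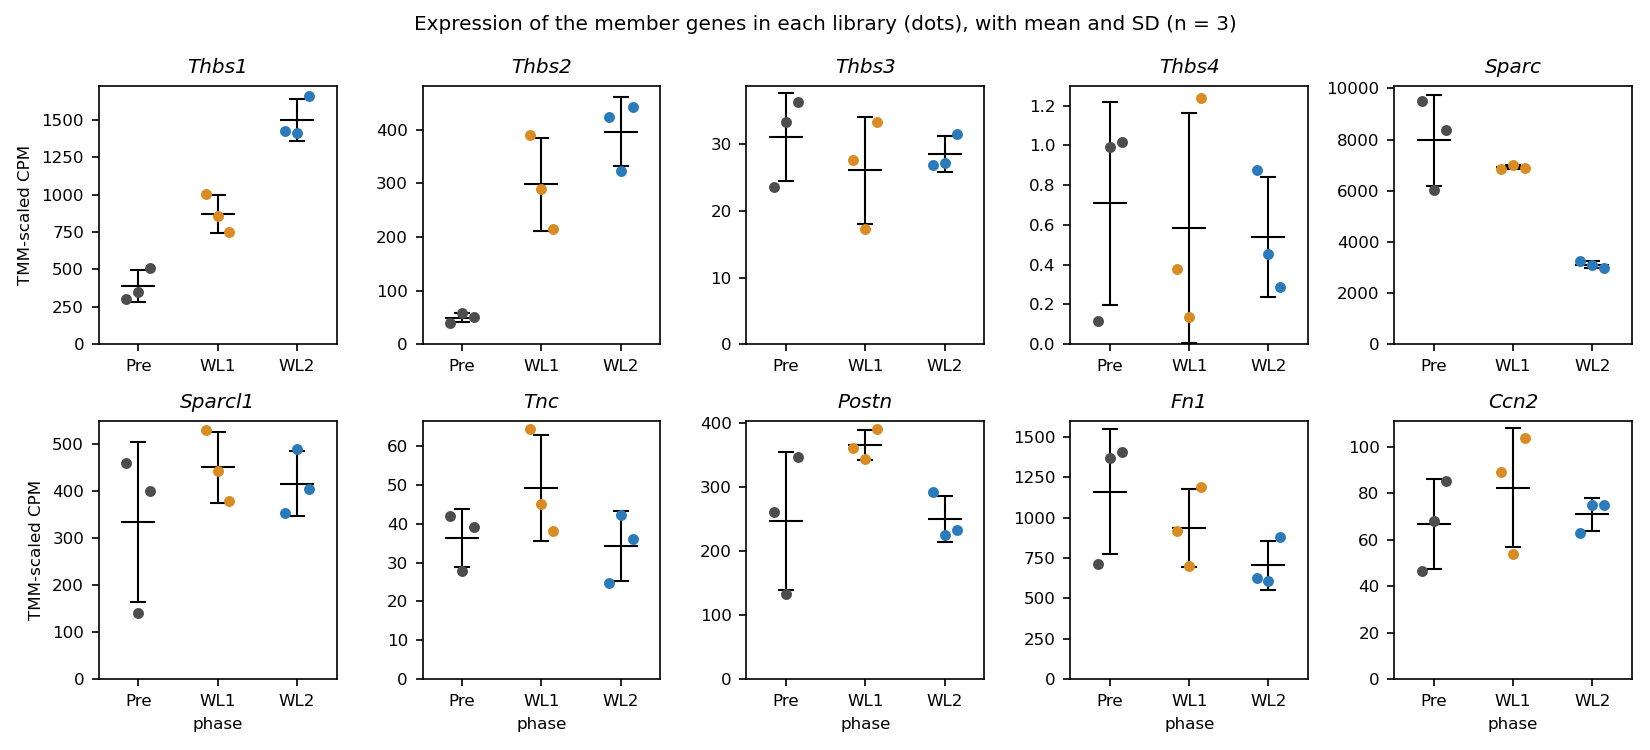
Expression of each of the 10 genes in TMM-scaled CPM (vertical axes, each starting at 0) against phase (horizontal axis); dots are libraries, and the long tick with its bar is the mean ± SD (n = 3). Thbs1 rises from 305 to 510.1 CPM at Pre to 1412 to 1657 at WL2, Thbs2 is at or below 57.8 in the Pre libraries and at or above 216 in the others, and Sparc is between 2978 and 3249 at WL2 against at least 6035 before.

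*Thbs3* (chromosome 3, 89122487 to 89134144, plus strand) was at 23.7, 33.3 and 36.4 CPM at Pre, 27.6, 17.3 and 33.3 at WL1, and 26.9, 27.2 and 31.6 at WL2. The libraries of the 3 phases overlapped, and the weekly steps were -0.26 (SE 0.23, adjusted p = 0.528) and 0.13 (SE 0.23, adjusted p = 0.803) on the log2 scale. The value of *Thbs3* is uncertain, since *Mtx1*, a gene of a mitochondrial import protein on the opposite strand, overlaps 11658 bases of it. *Mtx1* holds 4467 reads against 4788 for *Thbs3* over the 9 libraries, and the sources used here do not say whether the counting used strand. *Thbs4* (chromosome 13, 92888098 to 92931326, minus strand) had 2, 18 and 22 reads at Pre, 7, 3 and 22 at WL1 and 16, 8 and 5 at WL2. At that depth its 95% confidence interval for WL1 against Pre reached from -2.21 to 1.59 on the log2 scale, so a change of several fold in either direction was not detectable. The other 4 genes with reads that overlap *Sparcl1*, *Tnc*, *Fn1* or *Ccn2* are non-coding, are on the opposite strand and hold at most 0.534% of the reads of the member.

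*Sparc* (chromosome 11, 55285326 to 55314009, minus strand) fell in the second week. It was at 9526, 6035 and 8370.1 CPM at Pre, 6846, 7018 and 6907 at WL1, and 3249, 3088 and 2978 at WL2. The WL1 libraries lay within the range of the Pre libraries and close together, and the WL2 libraries lay below all others. On the log2 scale the step from Pre to WL1 was -0.20 (SE 0.16, 95% confidence interval -0.55 to 0.14, adjusted p = 0.455). From WL1 to WL2 it was -1.16 (SE 0.16, adjusted p = 0.0075), to a mean 0.448 times that of WL1. The comparison shares its WL2 libraries with the difference that chose *Sparc*, so its p is not independent of that choice. Leaving out WL2 replicate 2 brought the adjusted p of this fall to 0.058, while the log2 fold change stayed between -1.19 and -1.13 over the 9 fits that left out a library; it passed in the other 8. Without Pre replicate 2, which had the lowest *Sparc* of its phase, the step from Pre to WL1 was -0.37 (adjusted p = 0.103).

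*Sparcl1*, the relative of *Sparc* (chromosome 5, 104226977 to 104261599, minus strand), was at 460.2, 140.5 and 401 CPM at Pre, 530.1, 443 and 379.6 at WL1, and 353, 490.2 and 405 at WL2. Pre replicate 2 was low and the other 8 libraries overlapped. The step from Pre to WL1 was 0.43 on the log2 scale (SE 0.35, adjusted p = 0.476), or 0.07 without Pre replicate 2 (adjusted p = 0.869). It was -0.12 (SE 0.35, 95% confidence interval -0.88 to 0.65, adjusted p = 0.898) at WL2 against WL1. The difference between *Sparc* and *Sparcl1* was not itself tested.

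*Tnc* (chromosome 4, 63878022 to 63965252, minus strand) was at 42.1, 27.8 and 39.2 CPM at Pre, 64.5, 45.1 and 38.2 at WL1, and 24.6, 42.3 and 36.0 at WL2, with overlap between all phases. *Postn* (chromosome 3, 54268530 to 54298458, plus strand) was at 261, 132 and 347 CPM at Pre, 361, 344 and 389.9 at WL1, and 291, 225 and 233 at WL2. Its WL1 libraries lay above its WL2 libraries. The step between them was -0.55 on the log2 scale (SE 0.27, adjusted p = 0.286), which passed in 1 alternative, the fit of those phases alone (adjusted p = 0.0438). From Pre to WL1 *Postn* stood at 0.56 (SE 0.27, adjusted p = 0.237) and 0.26 without Pre replicate 2 (adjusted p = 0.363). *Tnc* was 0.44 at WL1 against Pre (SE 0.24, adjusted p = 0.298) and -0.52 at WL2 against WL1 (SE 0.24, adjusted p = 0.251).

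*Fn1* (chromosome 1, 71624679 to 71692359, minus strand) was at 714, 1368 and 1405 CPM at Pre, 920.4, 704 and 1189 at WL1, and 625, 611 and 878 at WL2. Pre replicate 1 was low for its phase and overlapped both later phases. Its log2 fold changes were -0.31 in the first week (SE 0.27, adjusted p = 0.523) and -0.41 in the second (SE 0.27, adjusted p = 0.437). *Ccn2* (chromosome 10, 24471340 to 24474581, plus strand) was at 46.7, 68.0 and 85.5 CPM at Pre, 89.4, 54.0 and 104 at WL1, and 62.9, 75.2 and 75.0 at WL2, with overlap between all phases. Its weekly steps were 0.30 (SE 0.25, adjusted p = 0.494) and -0.22 (SE 0.25, adjusted p = 0.692). For these 4 genes a p above the threshold does not show that the phases were alike: the 95% confidence interval of *Fn1* at WL1 against Pre, for example, runs from -0.91 to 0.29.

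**Figure D2:**
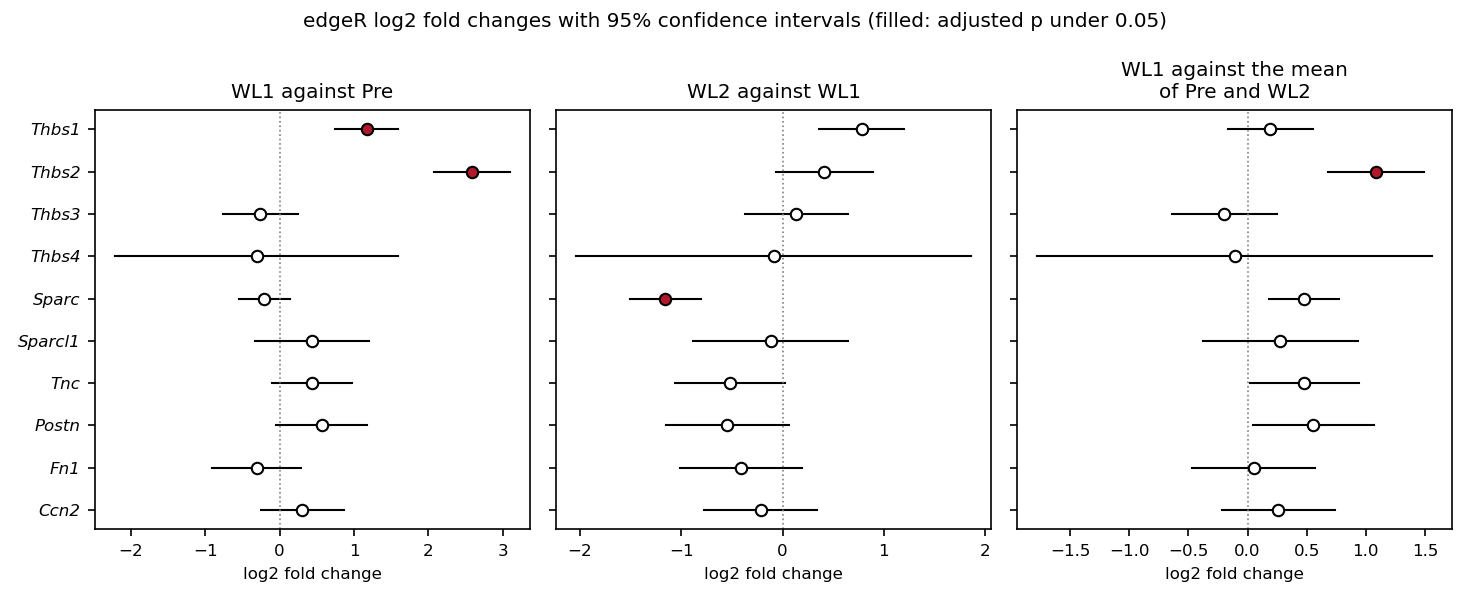
Log2 fold change (horizontal axes, edgeR) of the 10 genes (vertical axis) in the 3 comparisons that were tested for them; lines are 95% confidence intervals and filled dots have an adjusted p under 0.05. Filled are Thbs1 (1.17) and Thbs2 (2.59) at WL1 against Pre, Sparc (-1.16) at WL2 against WL1 and Thbs2 (1.09) at WL1 against the midpoint, drawn as the mean, of Pre and WL2. All 3 comparisons share libraries with the difference that chose the genes, and the one with the midpoint does not reuse the difference itself.

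At WL1 against Pre 2 of the 10 genes, *Thbs1* and *Thbs2*, rose, while 7.29% of the 18510 genes tested passed, 2.60% higher and 4.69% lower. At WL2 against WL1 1 fell, *Sparc*, against 3.68% of all genes, 1.31% higher and 2.37% lower. Both weekly comparisons share libraries with the difference that chose the genes, so these counts are not independent of the choice. In the comparison of WL1 with the midpoint 1 was higher, *Thbs2*, against 4.58% of all genes, 2.81% higher and 1.77% lower. The midpoint also uses the Pre and WL2 libraries. The libraries of WL1 and Pre did not overlap for 2 members and 28.7% of all genes, and those of WL2 and WL1 for 3 members (*Thbs1*, *Sparc* and *Postn*) and 30.3% of all genes. Non-overlap by itself was thus near the share of all genes. The median log2 fold change of the 10 genes was 0.37 in the first week and -0.17 in the second, beside 0.02 and -0.0014 for all genes.

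At WL2 against Pre, the comparison behind the choice of the genes, the log2 fold changes were 3.00 for *Thbs2* (SE 0.23), 1.95 for *Thbs1* (SE 0.20) and -1.36 for *Sparc* (SE 0.16). They were -0.72 for *Fn1* (SE 0.27), 0.32 for *Sparcl1*, 0.09 for *Ccn2*, 0.02 for *Postn*, -0.08 for *Tnc*, -0.12 for *Thbs3* and -0.40 for *Thbs4*. Without Pre replicate 2 these values were -1.53 for *Sparc*, -0.05 for *Sparcl1*, -0.28 for *Postn*, 3.12 for *Thbs2* and 1.88 for *Thbs1*. As means, *Thbs2* at WL2 was 8.00 times and *Thbs1* 3.86 times its level at Pre, and *Sparc* 0.389 times. The libraries did not overlap for 3 members and 30.9% of all genes. Nothing is read from this count, since the choice rested on the comparison.

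The movements changed the makeup of this group of matrix transcripts. Summed over the 10 genes, the level per length was 2665, 1761 and 2480.2 FPKM at Pre, 2204, 2133 and 2134 at WL1, and 1278, 1304 and 1325 at WL2. The scale of the authors' FPKM differs somewhat between Pre and the later phases, as given with the processing. *Sparc* made up 83.7% to 88.4% of that sum at Pre, 76.1% to 80.1% at WL1 and 56.2% to 61.7% at WL2. *Thbs1* and *Thbs2* together made up 1.97% to 3.50% at Pre, 6.72% to 9.30% at WL1 and 20.2% to 24.0% at WL2, with no overlap between phases. The shares follow from the levels above and add no test.

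**Figure D3:**
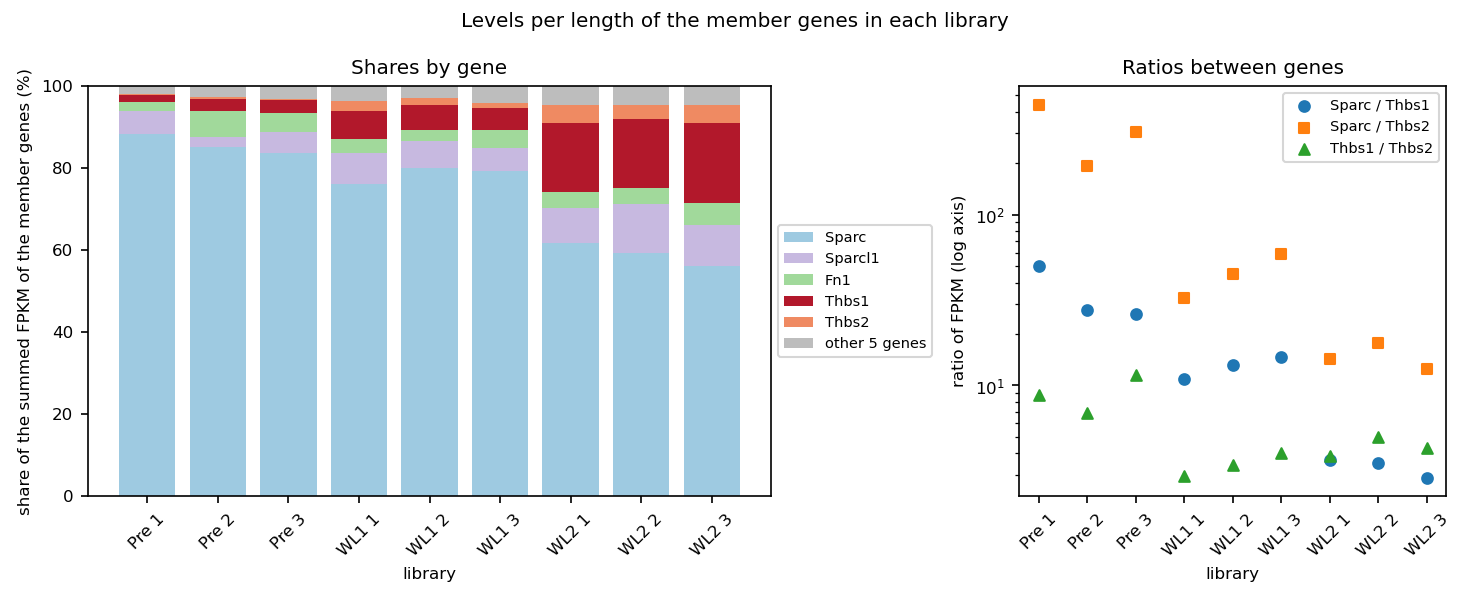
Left, share of the summed FPKM of the 10 genes taken by Sparc, Sparcl1, Fn1, Thbs1, Thbs2 and the other 5 genes together (percent, vertical axis) in each library (horizontal axis); right, ratios of FPKM between genes on a log axis. Thbs1 grows from at most 3.18% of the sum at Pre to at least 16.8% at WL2, and the ratio of Sparc to Thbs1 falls from at least 26.3 at Pre to at most 3.66 at WL2.

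Per length, *Sparc* was 50.1, 27.8 and 26.3 times *Thbs1* in the Pre libraries, 10.9, 13.1 and 14.7 times at WL1 and 3.66, 3.51 and 2.88 times at WL2. The ratio of *Sparc* to *Thbs2* went from 193 to 439.8 at Pre to 32.5 to 59.2 at WL1 and 12.4 to 17.6 at WL2. *Thbs1* exceeded *Thbs2* in all 9 libraries, by 8.78, 6.94 and 11.6 times at Pre, 2.97, 3.41 and 4.03 times at WL1 and 3.88, 5.03 and 4.31 times at WL2. The gap between these thrombospondins was thus widest in the Pre libraries, and the WL1 and WL2 libraries overlapped in it.

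The partners and relatives of these proteins were read from lists of 102 genes, of which 94 were tested. At WL1 against Pre 1 rose and 5 fell (6.38% of those tested, beside 7.29% of all genes), at WL2 against WL1 6 fell (6.38%, beside 3.68%), and at WL2 against Pre 5 rose and 9 fell (14.9%, beside 10.0% of all genes, 3.35% higher and 6.66% lower). Of the 15 tested receptors and partners of thrombospondins 0 passed in the 4 comparisons by edgeR. For WL1 against Pre, WL2 against WL1, WL2 against Pre and the midpoint comparison, 3, 5, 3 and 5 had an unadjusted p under 0.05. The share of all genes at that cut-off is not given. Nothing is thus read from such counts, here or in the lists below. With DESeq2, 0, 2, 0 and 3 passed. Beside these and the DESeq2 counts of the lists below, 2344, 1935, 2717 and 1949 of all genes passed. Leaving out WL2 replicate 1 brought 1, 2 and 1 of the receptors and partners past the threshold at WL1 against Pre, WL2 against WL1 and the midpoint comparison. Without Pre replicate 2 the counts were 2 at WL2 against WL1 and 1 in the midpoint comparison, and without Pre replicate 1 they were 2 at WL2 against WL1 and 1 at WL2 against Pre. *Cd36*, the receptor of this list with the highest FPKM, was at 4955, 4187 and 4894 CPM at Pre, 5943, 5783 and 5607 at WL1, and 6154, 5153 and 5219 at WL2, and did not pass.

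Of the 6 tested genes in the list of *Sparc* relatives, which also holds the SPARC-binding receptor *Stab1*, 0 passed by edgeR in the 4 comparisons, with 1, 3, 2 and 1 at an unadjusted p under 0.05 and 0, 1, 1 and 0 with DESeq2. The shares of all genes that passed by edgeR were 7.29%, 3.68%, 10.0% and 4.58%. Leaving out WL1 replicate 3 brought 1 past the threshold at WL2 against Pre. *Smoc1*, a secreted calcium-binding protein, was the gene of this list with the highest FPKM. It was at 309, 272 and 208 CPM at Pre, 326, 307 and 182 at WL1, and 363, 430.1 and 435 at WL2 (edgeR adjusted p = 0.0942 at WL2 against Pre). Of 4 relatives of *Tnc* and *Postn* 0 passed by edgeR, with 0, 1, 3 and 0 at an unadjusted p under 0.05 and 0, 0, 1 and 0 with DESeq2. Leaving out Pre replicate 1 brought 1 past the threshold at WL2 against Pre. *Tnxb* (tenascin X), the one with the highest FPKM, was at 365, 783 and 589.7 CPM at Pre, 561, 421 and 626 at WL1, and 355, 299 and 391 at WL2. At WL2 against Pre its edgeR adjusted p was 0.0943.

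In the CCN family, to which *Ccn2* belongs, *Ccn5* stood out among the 4 tested relatives. *Ccn5*, which lacks the C-terminal module of the other CCN proteins, was at 78.1, 97.4 and 57.6 CPM at Pre, 113, 87.2 and 154 at WL1, and 26.8, 23.5 and 17.1 at WL2. It fell by 2.39 on the log2 scale from WL1 to WL2 (SE 0.26, adjusted p = 0.00332) and by 1.79 from Pre to WL2 (SE 0.25, adjusted p = 0.00183), and both calls held in the 9 fits that left out a library. It lay 1.50 above the midpoint at WL1 (SE 0.20, adjusted p = 0.0111), a call lost without WL1 replicate 1 or WL1 replicate 3 (adjusted p of at most 0.0565). *Ccn3* was 0.91 lower on the log2 scale at WL1 than at Pre (SE 0.22, adjusted p = 0.0358), a call lost without Pre replicate 2 or 3, WL1 replicate 2 or 3 or WL2 replicate 2 (adjusted p of at most 0.122). It lay 0.86 below its midpoint (adjusted p = 0.0399), which held in 2 of the 9 fits, those without Pre replicate 2 and without WL2 replicate 1.

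Among 18 tested fibronectin receptors and adhesion proteins, 0 passed at WL1 against Pre by edgeR (3 at an unadjusted p under 0.05, 0 with DESeq2), beside 7.29% of all genes. At WL2 against WL1 2 fell (11.1%, beside 3.68% of all genes) and at WL2 against Pre 3 fell (16.7%, beside 10.0%). *Tln1* (talin, which links integrins to actin) fell by 0.76 from WL1 to WL2 (SE 0.13, adjusted p = 0.0173), lost without WL1 replicate 3, WL2 replicate 2 or WL2 replicate 3 (adjusted p of at most 0.108). *Itga5*, a subunit of the main fibronectin receptor, fell by 0.77 (SE 0.18, adjusted p = 0.0494), a call that held in 3 of the 9 fits that left out a library, those without Pre replicate 1, Pre replicate 2 or WL2 replicate 1. At WL2 against Pre, *Tns1* (tensin) fell by 0.69 on the log2 scale, *Itga9* by 0.66 and *Itgb5* by 0.57, with adjusted p-values of 0.0188, 0.0197 and 0.0144. Each of these 3 was lost without WL2 replicate 2, *Tns1* also without Pre replicate 2 or WL2 replicate 1, *Itga9* without Pre replicate 3 and *Itgb5* without WL2 replicate 3 (adjusted p of at most 0.0941). *Tln1* lay 0.57 above its midpoint at WL1 (adjusted p = 0.0272), which held in 3 of the 9 fits, those without Pre replicate 2, Pre replicate 3 or WL2 replicate 1.

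Of 15 YAP and TEAD factors and targets other than *Ccn2*, 2 passed at WL2 against Pre (13.3%, beside 10.0% of all genes). In each of the weekly steps 0 passed (2 and 3 at an unadjusted p under 0.05, 1 and 1 with DESeq2), beside 7.29% and 3.68% of all genes. *Vgll3*, a TEAD cofactor, fell by 0.99 (SE 0.21, adjusted p = 0.014), lost without WL2 replicate 2 (adjusted p of at most 0.0688). *Crim1* rose by 0.50 on the log2 scale (SE 0.12, adjusted p = 0.0293) and held in 4 of the 9 fits that left out a library, which are those without Pre replicate 3 and those without a WL1 library. *Ccn2* itself did not pass in the 3 comparisons tested for it.

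Among 13 tested matrix proteoglycans, *Ncan* (neurocan, a chondroitin sulfate proteoglycan known from the nervous system) changed most. It was at 19.8, 15.4 and 26.1 CPM at Pre, 4.61, 4.96 and 5.12 at WL1, and 1.04, 0.283 and 0.869 at WL2, with no overlap between phases. It fell by 2.06 in the first week (SE 0.29, adjusted p = 0.00346) and by 2.73 in the second (SE 0.36, adjusted p = 0.00641), and both falls held in the 9 fits that left out a library. At WL2 against Pre, 3 of the 13 rose and 2 fell (38.5% passed, beside 10.0% of all genes). Those that rose were the small leucine-rich proteoglycans *Podn* (1.36, SE 0.22, adjusted p = 0.00353), *Ogn* (1.08, SE 0.21, adjusted p = 0.00972) and *Dcn*, and those that fell were *Ncan* and *Prelp*. *Podn* and *Ogn* passed in the 9 fits that left out a library. *Prelp* was lower by 0.60 on the log2 scale already at WL1 (SE 0.12, adjusted p = 0.0168), a call lost without Pre replicate 1, WL1 replicate 2 or WL1 replicate 3 (adjusted p of at most 0.0639).

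Of 19 other tested matrix glycoproteins, *Matn2* (matrilin 2) and *Ltbp3*, which binds latent transforming growth factor beta, were the ones that fell at WL2 against Pre. In that comparison 15.8% of the list passed in either direction, beside 10.0% of all genes. *Matn2* was at 109.8, 83.4 and 114 CPM at Pre, 58.0, 54.3 and 51.5 at WL1, and 32.5, 35.2 and 47.4 at WL2. It fell by 0.91 in the first week (SE 0.16, adjusted p = 0.011, lost without WL1 replicate 3 at an adjusted p of 0.0507) and by 1.42 over both weeks (SE 0.16, adjusted p = 0.000567). *Ltbp3* was at 517, 657 and 561 CPM at Pre, 438, 429 and 408 at WL1, and 291, 294 and 326 at WL2. It fell by 0.93 over both weeks (SE 0.12, adjusted p = 0.000846). The falls of both genes over 2 weeks passed in the 9 fits that left out a library. The weekly steps of *Ltbp3*, -0.44 and -0.49 on the log2 scale with adjusted p-values of 0.0454 and 0.0478, passed in 0 and 2 of those 9 fits, the latter without Pre replicate 1 or 2. *Fbln5* (fibulin 5, which helps elastic fibres to assemble) rose by 0.66 at WL2 against Pre (SE 0.13, adjusted p = 0.0127), lost without WL2 replicate 2 (adjusted p = 0.0601). *Svep1* was at 222, 236 and 197 CPM at Pre, 358, 297 and 289 at WL1, and 225, 185 and 221 at WL2. Its rise of 0.53 and fall of 0.58 had adjusted p-values of 0.0363 and 0.0382, and 3 and 4 of the 9 fits that left out a library kept these calls. The rise was kept without Pre replicate 2, WL2 replicate 1 or WL2 replicate 2, and the fall without a Pre library or without WL2 replicate 1.

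**Figure D4:**
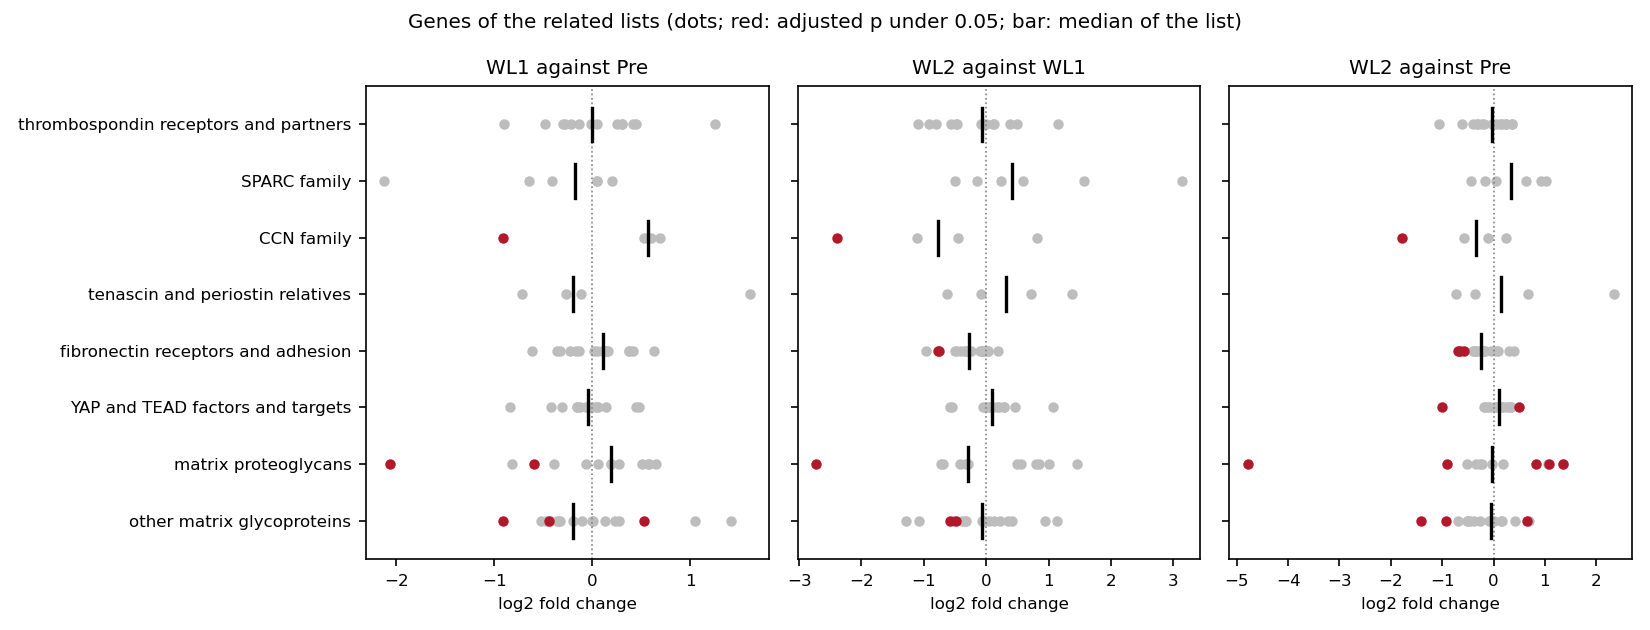
Log2 fold change (horizontal axes, edgeR) of each tested gene of 8 lists of partners and relatives (vertical axis) in 3 comparisons; red dots have an adjusted p under 0.05, grey dots do not, and black bars are list medians. Most dots are grey and lie on both sides of 0, and the lowest is Ncan at -4.79 in WL2 against Pre.

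Markers of the cell types that the tissue can hold were summed in each library, all in CPM. Of the 12 adipocyte markers each was detected in every phase, with *Fabp4* and *Cidec* the most abundant, and their sum was 29061 to 36058 at Pre, 20724 to 26458 at WL1 and 26723 to 31024 at WL2. Of these markers 4 fell at WL1 against Pre, 2 rose and 1 fell at WL2 against WL1, and 2 fell at WL2 against Pre. These are 33.3%, 25% and 16.7% of the list, beside 7.29%, 3.68% and 10.0% of all genes. In the midpoint comparison 3 adipocyte markers were lower (25%, beside 4.58% of all genes). The 12 fibroblast and progenitor markers summed to 12399 to 14601 at Pre, 12609.9 to 14562 at WL1 and 15533 to 19064 at WL2, of which *Gsn*, an actin-severing protein that adipocytes can also make, took 54.7% to 83.0%. Without *Gsn*, a sum added after the values were seen, the other 11, led by *Col3a1*, were at 4035 to 5487 at Pre, 3769 to 6596 at WL1 and 3239 to 3499.9 at WL2. *Gsn* rose and *Col3a1* fell at WL2 against Pre, and *Gsn* also rose at WL2 against WL1. The 12 macrophage markers, led by *Lyz2* and *C1qb*, summed to 1790.3 to 3357 at Pre, 3201 to 5937 at WL1 and 2013 to 3483 at WL2. Of these markers 1 rose at WL1 against Pre (8.33%, beside 7.29% of all genes), where 10 had a fold change above 0. In the midpoint comparison 2 were higher (16.7%, beside 4.58% of all genes), and 11 had a fold change above 0.

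The 10 endothelial markers, led by *Cdh5* and *Pecam1*, summed to 1768 to 2455 at Pre, 1478 to 2649 at WL1 and 2018 to 2249 at WL2, with overlap between all phases. The 10 markers of smooth muscle and pericytes, led by *Rgs5* and *Acta2*, summed to 917 to 1124 at Pre, 607 to 824 at WL1 and 569.6 to 803 at WL2, and 2 of them fell both at WL1 and at WL2 against Pre. These counts are 20% of the list in each comparison, beside 7.29% and 10.0% of all genes. In the midpoint comparison 1 of the smooth muscle and pericyte markers was lower (10%, beside 4.58% of all genes). The 10 mesothelial markers, led by *Upk3b* and *Msln*, summed to 46.1, 455 and 407 at Pre, 277, 51.6 and 141 at WL1, and 295, 632 and 847 at WL2. The 10 platelet markers, led by *Pf4* and *Itga2b* and with 1 at 0 in each library, summed to 39.8 to 56.1 at Pre, 40.4 to 63.2 at WL1 and 42.7 to 56.2 at WL2. The 12 hepatocyte markers, led by *Alb* and *Apoa1*, summed to 11.4, 65.5 and 111 at Pre, 108, 4.87 and 14.1 at WL1. At WL2 they summed to 5.86 to 8.63, with 3 of them at 0, and 2 fell at WL2 against Pre (16.7%, beside 10.0% of all genes). Pre replicate 2 stood apart with 229 CPM of 8 B cell markers (*Cd79a* and *Cd79b* leading) and 58.9 of 8 T cell markers (*Cd2* and *Lck* leading), against at most 22.3 and 14.0 in the other 8 libraries.

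**Figure D5:**
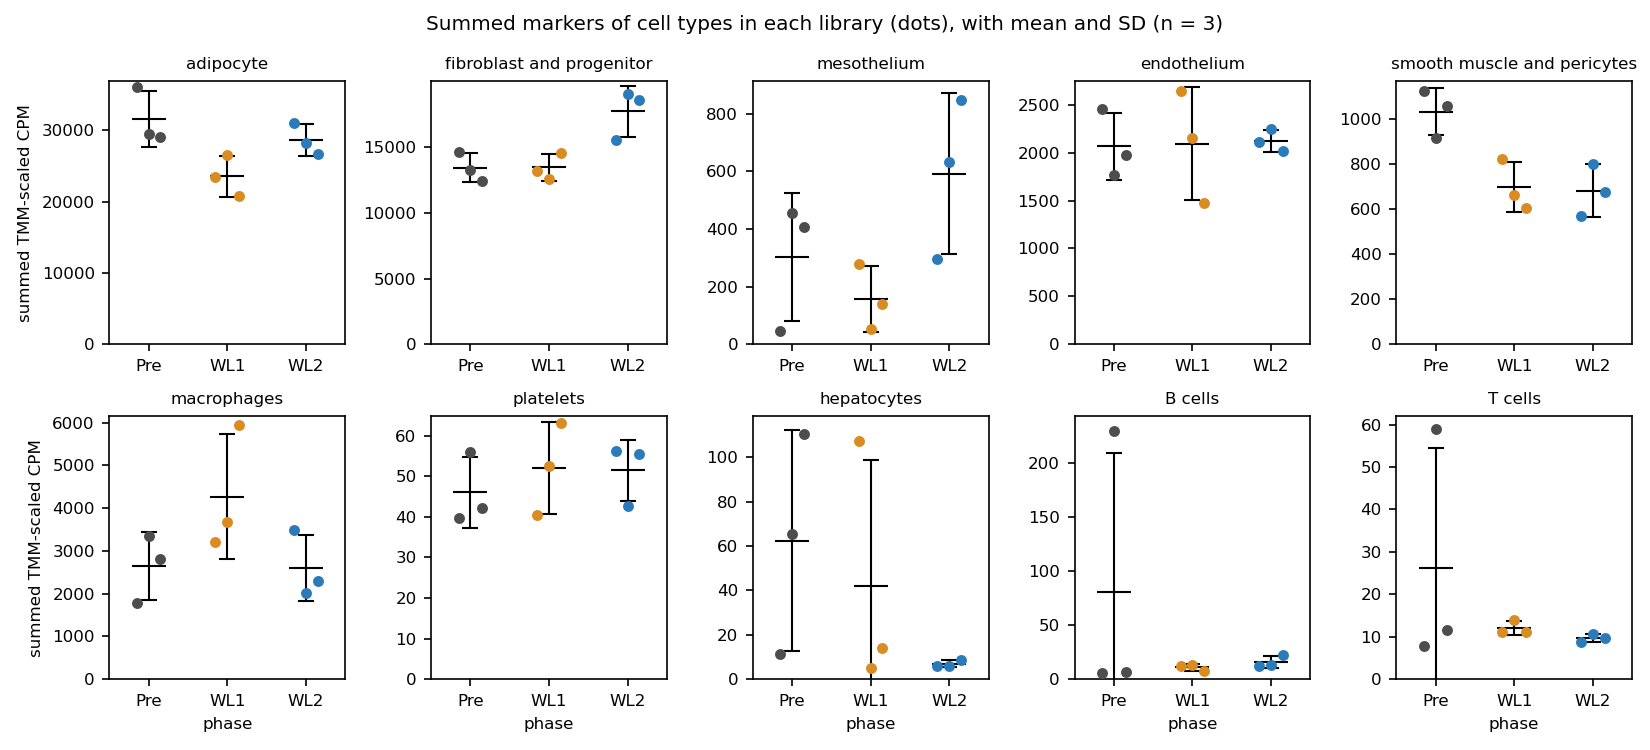
Summed markers of 10 cell types in TMM-scaled CPM (vertical axes, each starting at 0) against phase (horizontal axis); dots are libraries, and the long tick with its bar is the mean ± SD (n = 3), where bars that would reach below 0 end at the axis. Adipocyte markers are lowest at WL1 (20724 to 26458), the fibroblast and progenitor sum, most of it Gsn, is highest at WL2 (15533 to 19064), and Pre replicate 2 has the highest B cell sum (229, against at most 22.3 in the other 8 libraries). Without Gsn, which is not drawn, the fibroblast and progenitor sum is lowest at WL2 (3239 to 3499.95, against 4035 to 5487 at Pre and 3769 to 6596 at WL1).

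The members that changed were also set against these sums, in CPM per 1000 CPM of markers. Per fibroblast and progenitor markers, *Thbs2* was at 2.74 to 4.36 at Pre, 14.8 to 29.5 at WL1 and 17.0 to 27.2 at WL2, and *Sparc* at 455 to 675, 474 to 557 and 160.4 to 209. *Thbs1* per these markers was at 20.9 to 41.1, 51.7 to 76.1 and 74.1 to 91.6, with overlap between WL1 and WL2. *Gsn* takes most of that sum, with its largest shares at WL2. Without *Gsn*, *Thbs2* was at 9.28 to 10.7 at Pre, 32.7 to 88.9 at WL1 and 100.04 to 127 at WL2, with no overlap between phases. *Thbs1* was at 64.6 to 93.0, 114 to 229 and 406 to 475, also with no overlap. *Sparc* was then at 1121 to 2361, 1047 to 1862 and 854 to 954, so that WL2 still lay below the other phases, by less than with *Gsn*. The sum without *Gsn* holds *Col1a1*, *Col1a2* and *Col3a1*. The paper reports lower collagen expression in fibroblasts isolated after weight loss, so this sum need not follow the amount of fibroblasts. Per adipocyte markers, *Sparc* was at 204 to 288 at Pre, 265 to 333 at WL1 and 105 to 111 at WL2, and *Thbs1* at 8.46 to 17.6, 32.4 to 42.7 and 45.9 to 62.0. Per macrophage markers, *Sparc* was at 1798 to 5321 at Pre, 1163 to 2139 at WL1 and 933 to 1534 at WL2, and WL1 overlapped both other phases. *Thbs1* per macrophage markers overlapped between Pre, at 104 to 181, and WL1, at 127 to 313, and stood at 408 to 722 at WL2. *Thbs2* did not overlap between Pre and WL1 against any of these 4 sums. The part of the makeup of the tissue in the changes of *Thbs1*, *Thbs2* and *Sparc* was not tested.

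Over the 9 libraries, Pearson's r of log2 CPM was 0.94 between *Thbs1* and *Thbs2*, -0.81 between *Thbs1* and *Sparc* and -0.69 between *Thbs2* and *Sparc*, with phase shared by the points. Of the other pairs, the highest were 0.77 between *Thbs3* and *Thbs4*, 0.74 between *Sparcl1* and *Postn* and 0.71 between *Thbs3* and *Fn1*. *Thbs4* has few reads and the value of *Thbs3* is uncertain. Pre replicate 2 was the lowest library of both *Sparcl1* and *Postn*. Among 13047 protein-coding genes with a mean of at least 1 CPM, the profiles most like that of *Thbs2* included those of *Kmt2a* (0.98), *Chrdl1* (0.98), *Dnah6* (0.97) and *Hsd17b11* (0.96), and the least like were *Ptges3l* (-0.99) and *Hfe* (-0.99). *Chrdl1*, a secreted inhibitor of bone morphogenetic proteins, was at 123, 128 and 103 CPM at Pre, 472, 380.4 and 248 at WL1, and 535, 549 and 565 at WL2. The profiles most like that of *Sparc* were those of *Oxtr* (0.98), *Duoxa1* (0.98), *Nrep* (0.98), *Lamb3* (0.98) and *Copg2* (0.98), and the least like were *Tmem39a* (-0.98) and *Ifitm1* (-0.97). *Oxtr*, the receptor of oxytocin, was at 289, 162 and 229.8 CPM at Pre, 192, 210.2 and 169 at WL1, and 19.3, 19.9 and 21.1 at WL2. With each phase mean subtracted, r with *Thbs2* was 0.86 for *Kmt2a*, 0.71 for *Chrdl1*, 0.79 for *Dnah6* and 0.19 for *Hsd17b11*. For the 5 genes most like *Sparc* it was 0.71 to 0.89. *Dnah6* had 8, 20 and 15 reads in the Pre libraries. Likeness of 9 points that share 3 phases is a description of these libraries.

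The nearest tested protein-coding genes did not pass in the 4 comparisons. Beside *Thbs2* on chromosome 17 these were *Smoc2*, at a distance of 260710 bases, which was at 103, 145 and 113 CPM at Pre and 106, 70.5 and 96.0 at WL1, and *Wdr27*, at 124284 bases and at most 1.92 CPM. Beside *Sparc* on chromosome 11 they were *Slc36a1*, at 158170 bases, with adjusted p-values of 0.114 to 0.455, and *Atox1*, a copper chaperone at 23458 bases, which was at 123, 87.8 and 86.6 CPM at Pre and 78.3, 54.3 and 50.4 at WL2 (adjusted p = 0.071).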

How the data were processed

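RNA of epididymal adipose tissue was sequenced in 9 libraries (Novogene), 3 each at Pre, WL1 and WL2, grouped by the sample labels. The authors deposited whole-number counts per gene without normalization and, in a second table, FPKM for the same libraries. The submitters' processing notes name CASAVA, HISAT, HISAT2 and TopHat2 and the builds GRCm38 and mm10, without roles; no counting program, annotation or strand setting is named in those notes or in the paper. The authors' table and GENCODE M21 (GRCm38) share 52073 genes, and 1472 of them lie at identical coordinates, so positions are printed as in the table, without a build. Libraries held 16434450 to 22729072 counts, and a gene at 0.5 CPM then has few reads. The authors' FPKM imply library totals 0.995 to 1.12 times those summed from the deposited counts. This factor was 0.995 to 1.01 in the Pre libraries and 1.07 to 1.12 in the WL1 and WL2 libraries. FPKM compared between phases carry that difference in scale.

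In R 4.3.3, the 18510 genes that reached 0.5 CPM in 1 library or more were tested with edgeR 4.0.16 (TMM, glmQLFit and glmQLFTest, 1 model over the 9 libraries without covariates, Benjamini-Hochberg adjustment, threshold 0.05). Alternatives were other scaling factors, DESeq2 1.42.0, no filter or a filter on 3 libraries, limma 3.58.1 on log2(FPKM + 1) and log2(FPKM + 0.1), the replicate number as a block, the compared phases alone, and leaving out each library. The genes, lists and tests were chosen with earlier results of these data known. Named are every member; of each list and comparison up to 3 genes past the threshold with the largest change, or the gene with the highest mean FPKM where none passed; the 2 most abundant genes of each marker list; the 5 most and 2 least correlated genes and the neighbours of *Thbs2* and *Sparc*; and genes overlapping a member. A gene that this rule names is not reported here. *Dcn* and the fall of *Prelp* at WL2 were added to complete a count. No libraries held identical values, and the chi-square of library pairs within a phase was 8.84 to 46.8 times its degrees of freedom, beyond sampling noise. Counts of 17836 genes were also simulated with the spread fitted to these data, and changes were planted only in genes with a mean of at least 1 CPM. In the comparison of WL1 with Pre, 61 of 100 genes with a 2-fold and 85 of 100 with a 4-fold change were recovered. Of 154 calls 8 were false. Fewer genes were changed there than were called in the data, so these shares need not hold for the data.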

Additional observations from a re-analysis of the deposited data

How the results depend on the processing

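Depth limits *Thbs4*, with 2 to 22 reads per library, and strand limits *Thbs3*. Of the fold changes of the members, the signs of *Thbs1*, *Thbs2*, *Sparc*, *Tnc* and *Postn* did not reverse, under the alternatives run, in the 3 comparisons tested for them. The sign of *Thbs4* at WL2 against WL1 reversed with the replicate block (0.21) and with limma on log2(FPKM + 0.1) (0.059). Over the fits that left out 1 library, the log2 fold change at WL2 against WL1 ranged from -0.093 to 0.37 for *Thbs3*, -0.62 to 1.08 for *Thbs4*, -0.25 to 0.017 for *Sparcl1* and -0.45 to 0.0068 for *Ccn2*, at WL1 against Pre from -1.47 to 0.17 for *Thbs4*, and at WL1 against the midpoint of Pre and WL2 from -0.42 to 0.031 for *Thbs3*, -1.28 to 0.37 for *Thbs4* and -0.17 to 0.22 for *Fn1*. Genes past the threshold numbered 1350 at WL1 against Pre (2344 with DESeq2), 681 at WL2 against WL1 (1935 with DESeq2, 1668 without a filter, 1053 with those phases alone), 1853 at WL2 against Pre, and 848 at WL1 against the midpoint of Pre and WL2 (1949, 1496, and with limma 521 and 445 for pseudocounts of 1 and 0.1). Leaving out 1 library gave 512 to 1500, 37 to 1351, 743 to 1688 and 11 to 1335 genes in these comparisons. The members past the threshold, 1 at WL2 against WL1, were 2 with other scaling factors, DESeq2, no filter or the filter on 3 libraries, 3 with those phases alone and 0 to 2 without 1 library; at WL1 against the midpoint of Pre and WL2 they were 1, 2 with DESeq2 and 0 to 2 without 1 library. Of the 94 list genes 6 passed at WL1 against Pre (11 without a filter, 1 to 8 without 1 library), 6 at WL2 against WL1 (23 with DESeq2, 20 without a filter, 3 with limma on log2(FPKM + 1), 2 to 14 without 1 library), 14 at WL2 against Pre (7 to 16), and 4 at WL1 against the midpoint of Pre and WL2 (11 with DESeq2, 14 without a filter, 0 to 9 without 1 library). No pairing by replicate number was seen: same-numbered libraries correlated by -0.23 to 0.09 in their deviations from the phase means. With 3 libraries per phase, these correlations cannot exclude a shared batch. With the replicate block, 844, 330 and 272 genes passed at WL1 against Pre, WL2 against WL1 and WL1 against the midpoint of Pre and WL2, and 3, 3 and 1 list genes. The causes of these differences were not tested.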
